A study of Mus musculus with 12 samples.

Results

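The region described here is a block of 160 kb on mouse chromosome 13, chr13:12790001-12950000 on GRCm38/mm10, that begins at the proliferin gene Prl2c3. Its members are all nucleosome calls of the series whose midpoint lies in this interval: 5249 of 415758 calls (1.26%) over 6 lists. The interval was chosen because its bins of 10 kb hold many calls, so the high number of calls is a description and not a finding. Prl2c3 gives the region its name, but its body lies at the left edge of the block and holds 0.387% to 3.53% of the calls. The rest lies beyond the start of the gene.

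The calls come from micrococcal nuclease (MNase) sequencing of male germ cells of SV129 mice aged 8 to 12 weeks, with no other treatment or allele in any group. MNase cuts the linker DNA between nucleosomes, and the fragments it leaves mark DNA wrapped around histones. M stands here for cells that the sample titles name meiotic spermatids but the protocol names a meiotic fraction, so their exact stage is uncertain. RS stands for round spermatids, haploid cells that later exchange most histones for protamines. Each stage received 0.5, 1 or 2 U of the nuclease, and each combination has 2 samples. Cells were pooled from 11 mice per collection, fractions had a purity of at least 85%, and RS was digested with 2 times as many cells as M at each amount. The authors called nucleosomes once from both samples of a group, so each group is 1 list of calls without replicates, and no difference between groups could be tested. The lists held 27101 to 179133 calls. Ranges in brackets after a value are 95% intervals that cover counting error alone, and overlap of neighbouring calls makes them too narrow.

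Prl2c3 belongs to the prolactin and growth hormone superfamily. In the mouse this family has grown by gene duplication into a large set of hormone genes, most of them active in the placenta, and the Prl2c members encode proliferins, glycoproteins made by trophoblast giant cells. Calls in near-identical sequence are uncertain here, because the way reads with several matches were placed is not stated. The cells are from SV129 mice and the assembly is of C57BL/6J, and the number of copies of the block in SV129 was not analysed here, so call density and copy number cannot be told apart.

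The promoter of Prl2c3 and that of its relative Prl2c5 are shown first because their sequences are nearly the same while their calls differ. Prl2c3 lies on the minus strand and its sequence is from chr13:12800100-12800329. Prl2c5 lies on the plus strand, in the right flank, and its sequence is from chr13:13182466-13182695. Both are the first 230 bases of the RefSeq promoter windows on GRCm38.p6 and end before the gene, read 5′ to 3′ along the gene. Capitals mark the bases at which they differ.
Prl2c3: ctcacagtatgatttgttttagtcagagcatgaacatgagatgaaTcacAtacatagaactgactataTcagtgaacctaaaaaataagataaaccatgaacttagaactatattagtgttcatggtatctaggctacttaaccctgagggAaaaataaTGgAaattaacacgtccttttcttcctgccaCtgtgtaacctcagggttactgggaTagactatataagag
Prl2c5: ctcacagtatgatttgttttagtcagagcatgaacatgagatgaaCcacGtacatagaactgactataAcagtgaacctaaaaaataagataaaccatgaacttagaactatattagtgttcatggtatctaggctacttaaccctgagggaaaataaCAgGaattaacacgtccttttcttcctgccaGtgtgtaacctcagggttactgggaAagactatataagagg

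Of 229 aligned bases, 221 were identical (96.5%), 8 differed, and Prl2c3 had 1 more base. In M, 3, 5 and 4 calls touched the Prl2c3 sequence at 0.5, 1 and 2 U, and they covered 61.7%, 100% and 100% of it. In RS, 6, 3 and 0 calls touched it, with 100%, 40% and 0% covered. The promoter of Prl2c3 thus had calls in 5 of 6 lists and that of Prl2c5 in none of the 6. Prl2c3 lies in a block chosen for its dense calls, so this contrast is a description.

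The second promoter inside the block belongs to the long noncoding RNA gene Gm40904, and it is shown because it too carries calls. Its first 230 bases, on the plus strand at chr13:12925512-12925741, are in lower case throughout because no part was singled out.
Gm40904: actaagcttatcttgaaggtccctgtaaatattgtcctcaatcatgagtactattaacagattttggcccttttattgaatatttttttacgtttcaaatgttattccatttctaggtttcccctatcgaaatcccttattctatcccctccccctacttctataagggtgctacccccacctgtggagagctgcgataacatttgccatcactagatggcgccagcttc

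In M, 0, 5 and 4 calls touched this sequence from 0.5 to 2 U, and in RS 5, 4 and 0 calls. It was covered in full in M at 2 U and RS at 0.5 U, and was without calls in M at 0.5 U and RS at 2 U. Both promoters were free of calls in RS at 2 U, the smallest list. Over the whole RefSeq windows, which run a short way into the gene, the 2 windows of the block had calls, the 13 windows in the 1 Mb on each side had none in any list, and 6.47% of all 32851 windows had some. The block was chosen for its dense calls, so nothing is read from this count.

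The block stood far above its surroundings in all 6 lists. From 0.5 to 2 U, the block held 775, 906 and 892 calls of M, while it held 1586, 681 and 409 of RS. The flanks of 1 Mb on each side together held 95, 109 and 112 calls of M and 287, 74 and 48 of RS. The block therefore exceeded flanks that are many times its length in each list. Per kb, the density in the block over that of both flanks was 102 (82.4 to 126), 104 (85.2 to 127) and 99.6 (81.8 to 121) in M. In RS it was 69.1 (60.9 to 78.3), 115 (90.5 to 146) and 107 (79.0 to 144). The lowest fold belonged to RS at 0.5 U, the list with by far the most calls in the flanks.

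Calls in the block overlapped one another, so the bases they cover are a second measure of its extent. A call is 140 bp long, neighbouring midpoints were at least 20 bp apart, and the median gap between neighbours was 35 to 45 bp in 5 lists and 107.5 bp in RS at 2 U. The covered part of the block was 34.1%, 38.4% and 38.8% for M with rising MNase. The values for RS were 60.4%, 32.1% and 22.1%. Each flank was covered over 0.348% to 0.665% in M, 1.18% and 1.36% in RS at 0.5 U, and 0.171% to 0.401% in RS at 1 and 2 U. Counted by bases, the block was thus 47.5 to 99.2 times as covered as its flanks. When calls with midpoints within 73 bp were merged, 297, 323 and 333 positions remained in M against 479, 291 and 212 in RS.

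**Figure D1:**
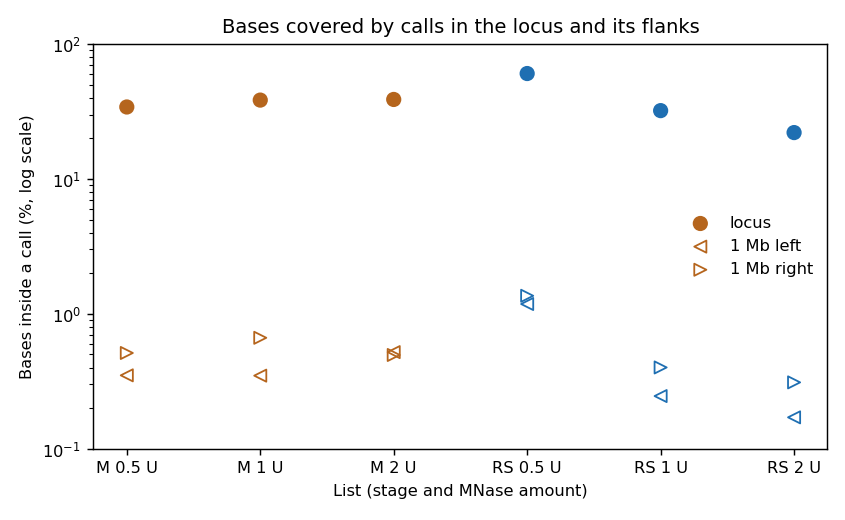
Percentage of bases inside a call, on a log scale, in the block (filled circles) and in 1 Mb to its left and right (open triangles), for each list of M (brown) and RS (blue). Each point is 1 list without replicates; the block lies between 22.1% and 60.4% and every flank below 1.4%.

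The block was long at the scale of 10 kb bins, the scale on which it was chosen. At the scale of bases, the calls of a list formed 191 to 325 separate runs of touching calls. The longest run of a list had 510 to 1898 bp. Of the 16 bins of 10 kb in the block, 15, 15 and 14 held more than 20 calls in M from 0.5 to 2 U, and 16, 15 and 11 in RS. Over the 272159 bins of 21 chromosomes the corresponding shares were 0.0305%, 0.0448% and 0.0485% in M against 0.083%, 0.0353% and 0.0246% in RS. The block was chosen by this count, so nothing follows from the contrast. In all 6 lists, 11 of the 16 bins were above 20 calls, against 0.0198% of all bins. Bins above 20 calls in at least 1 list made up 0.0874% of all bins, and as a run of such neighbours the block was the longest on these chromosomes, with 16 bins, followed by the 8 bins around Sfi1 on chromosome 11.

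The edges of the block were not the same in every list. The leftmost bin, from 12790001, held 3, 11 and 17 calls in M against 56, 7 and 7 in RS, and passed 20 calls in RS at 0.5 U only. The rightmost bin, from 12940001, held 26, 21 and 20 in M against 54, 25 and 4 in RS. Just outside, the bin from 12780001 held 2, 8 and 3 calls in M against 13, 0 and 0 in RS, and the bin from 12950001 held 1, 3 and 3 in M against 7, 7 and 1 in RS. One bin further out on the right, from 12960001, calls were frequent again, with 20, 30 and 26 in M against 54, 22 and 15 in RS. On the left, the bin from 12760001 held 25, 13 and 24 in M against 47, 9 and 12 in RS. These 2 bins gave 35.2% to 56.3% of all flank calls. Of the 200 flank bins, 119 had no call in RS at 0.5 U and 165 to 184 had none in the other lists.

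**Figure D2:**
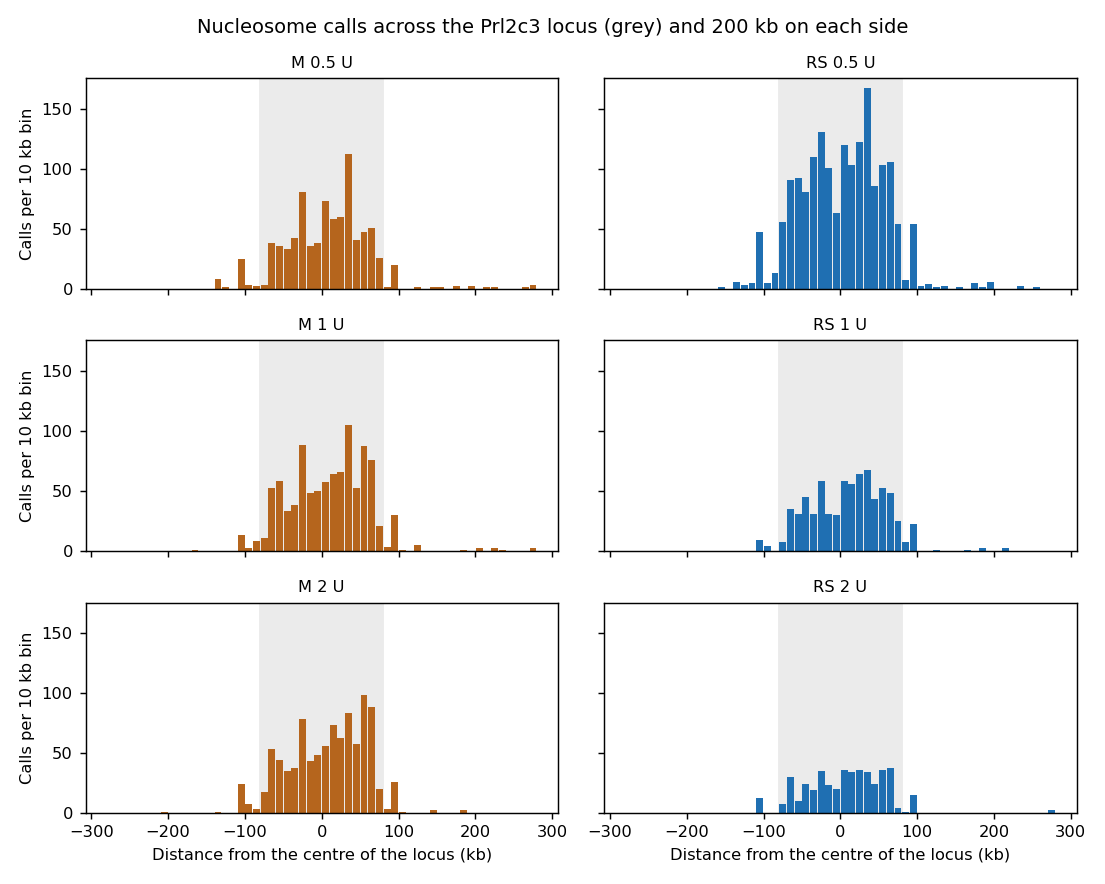
Calls per bin of 10 kb against the distance from the centre of the block in kb, for each list, with the block shaded in grey and 200 kb shown on each side. Every shaded bin holds calls in all 6 lists, but the edge bins hold as few as 3 in M at 0.5 U and 4 in RS at 2 U. On each side, 1 separate bin with more calls than its neighbours lies outside the shading.

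Within the block the calls were spread unevenly, and the same bins tended to be high in each list. The bin from 12900001 had the most calls summed over the lists, 568, with 112, 105 and 83 in M against 167, 67 and 34 in RS. It was the highest bin in M at 0.5 and 1 U and in RS at 0.5 and 1 U. Next came the bin from 12840001, with 471 calls, and that from 12920001, with 423. No gene of the RefSeq table overlaps the first of these bins. The lowest sums were 101 in the leftmost bin, from 12790001, which holds the body of Prl2c3, 150 in the bin from 12940001 and 249 in the bin from 12860001. The highest bin had 1.37 to 2.70 times the median bin of its list. Over the 16 bins, Pearson's r between lists ran from 0.679 to 0.931 with a median of 0.817 over 15 pairs. This describes bins that share libraries and neighbours, and no test was made. Without the 2 edge bins, over 14 bins, r ran from 0.495 to 0.907 with a median of 0.728.

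The 5 RefSeq genes that overlap the block are 1 protein-coding gene, 3 pseudogenes and 1 gene for a long noncoding RNA. Calls were counted over each gene with 1000 bp on each side. Prl2c3 (chr13:12790816-12800093), the proliferin gene, had 6, 16 and 21 calls in M against 63, 10 and 7 in RS from 0.5 to 2 U. Its body was covered by calls over 3.69%, 11.3% and 14.7% in M against 43.7%, 10.4% and 8.03% in RS. RS at 0.5 U stood alone with a well covered gene body, and the other 5 lists lay at or below 14.7%. The bin with most of this body passed 20 calls in RS at 0.5 U only, and so joined the block through that list. The contrast is therefore a description, and nothing is read from it.

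The rest of the block was more densely called than the body of Prl2c3 in all 6 lists. Per kb, the body held 0.323, 1.29 and 1.83 calls in M against 6.04, 0.970 and 0.754 in RS. The 149.9 kb beyond its start held 5.15, 5.96 and 5.84 calls in M against 10.2, 4.48 and 2.68 in RS. As a ratio, the stretch beyond the start had 1.69 times the density of the body in RS at 0.5 U, the list with the most calls in all, and 3.19 to 15.9 times in the others. That list also had the highest mean coverage implied by its p-values, 0.696 reads per window against 0.409 to 0.507 in the others. The part of coverage in this difference was not tested. The bin with most of the body also joined the block through that list alone, so its low ratio is a description.

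The pseudogenes lie in the middle of the block. Gm18262 (chr13:12864124-12866069) had 30, 42 and 31 calls in M against 37, 21 and 16 in RS. Gm2544 (chr13:12866628-12873848) had 68, 54 and 44 in M against 105, 56 and 30 in RS. With their margins, Gm18262 and Gm2544 overlap, so calls in the shared stretch count for both. Gm18878 (chr13:12879755-12881253) had 8, 18 and 23 in M against 18, 11 and 6 in RS. All 3 had calls in all 6 lists, and their bodies were covered over 23.8% to 63.3%. With more MNase, calls at Gm2544 became fewer in both stages, while those at Gm18878 became more frequent in M and fewer in RS. Gm40904 (chr13:12925762-12932245), the noncoding RNA gene, had the most calls of the 5 genes when the lists were summed, 428 against 357 for Gm2544, with 47, 94 and 84 in M against 113, 45 and 45 in RS. In M at 0.5 U and RS at 1 U, Gm2544 had more. The body of Gm40904 was covered over 48.4% to 73.6% and was the most covered of the 5 in each list except RS at 1 U, where Gm18262 had 54.9% against 49.1%.

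The 5 gene bodies make up 16.5% of the block and held 14.1%, 17.9% and 16.6% of its calls in M against 15.6%, 16.2% and 19.1% in RS. Prl2c3, with 5.80% of the block, held less than its share in each list. The other 4 bodies, with 10.7% of the block, held 12.1% to 17.4% of the calls, above their share in each list. Most calls lay where the RefSeq table has no gene.

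The other proliferin genes had far fewer calls than Prl2c3. Prl2c3 alone of them lies in the block, which was chosen for its dense calls, so this contrast is a description. Prl2c2 (chr13:12996120-13005393) in the right flank had 1, 4 and 0 calls in M against 0, 1 and 0 in RS. Prl2c5 (chr13:13182703-13191930), also in the right flank, had 0, 3 and 0 in M against 0, 1 and 0 in RS. Prl2c1, which lies apart with the main placental cluster from 27849341, had no call. These genes are 9274, 9228 and 8451 bp long against 9278 bp for Prl2c3, so gene length is close for the first pair.

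The other genes of the prolactin family list, which includes the receptor gene Prlr, were far less densely called than Prl2c3. Of 28 names in the list, 27 were found, as Prl2c4 is a synonym of Prl2c3 in the RefSeq table. Of the 26 genes other than Prl2c3, 17 had at least 1 call and 9 had none, among them Prl, which encodes prolactin itself. Of all 49943 genes of the table on these chromosomes, 50.3% had a call within the same margins in some list. The 26 genes are all protein-coding, and among protein-coding genes of the table the share was 63.9%. Together the 26 genes had 15, 26 and 11 calls in M against 39, 11 and 4 in RS. The receptor gene Prlr, with 171953 bp the longest of them, accounted for 54 of these calls over the 6 lists. Prl8a9 and Prl7a2 had 7 calls each, Prl2c2 and Prl8a6 had 6 each, Prl2a1 had 5 and Prl2c5 had 4. Prl8a2 and Prl8a8 had 3 each. Prl6a1, Prl7c1 and Prl4a1 had 2 each, and Prl3d2, Prl3b1, Prl2b1, Prl8a1 and Prl5a1 had 1 each. Summed over the lists, the 26 genes held 0.250 calls per kb with their margins, and 0.208 without Prlr. Prl2c3 held 10.9, and the 21 chromosomes as a whole 0.148. The 26 genes thus lay somewhat above the genome and far below Prl2c3. The block was chosen for its dense calls, so the excess of Prl2c3 is a description and not a finding. RS at 0.5 U, through which its bin joined the block, gave 63 of its 123 calls.

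Of the 14 protein-coding genes of the flanks, 13 had at least 1 call in some list and Gm7040 had none. Over all protein-coding genes of the table the share with a call was 63.9%. Ryr2, of the calcium release channel of heart muscle, had 95 calls over 553847 bp, or 0.171 per kb with its margins. Lyst, a regulator of lysosome traffic, had 35 over 188493 bp, or 0.184 per kb, and Gpr137b had 23, or 0.605 per kb. Actn2, of the muscle Z disc, had 9. Heatr1, of ribosome biogenesis, and Nid1, of the basement membrane, tied for the fifth place with 7 each. These rates, 0.0913 to 0.605 per kb, lie on both sides of the genome value of 0.148.

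The p-values of a list took values that match the upper tails of a Poisson distribution with at least 6 reads, so each call implies a whole number of reads. In the block, 38.3%, 36.2% and 36.9% of the calls in M against 29.5%, 41.7% and 47.7% in RS stood at this minimum, against 65.4% to 69.5% of the whole lists. The median call in the block had 7 reads in each list. Calls of 10 or more reads were 11.9%, 10.5% and 8.97% of those in M and 19.0%, 5.87% and 2.44% of those in RS. The highest calls had 18, 20 and 15 reads in M against 19, 13 and 15 in RS. Read counts in the block were thus raised a little above the minimum over a long stretch, with no very high call.

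The 2 other dense places examined differed in this respect, and the remaining dense runs were not analysed for it. In the 80 kb around Sfi1, a gene for a centrin-binding protein, on chromosome 11 (chr11:3120001-3200000), 61.6% to 67.1% of the calls had 10 or more reads and the highest had 49 to 69. In the bin with the ribosomal RNA-like gene Rn18s-rs5 on chromosome 17 (chr17:39840001-39850000), 81.3% to 98.8% had 10 or more reads. The highest share in the Prl2c3 block, 19.0%, lay below the lowest share in both. In RS at 1 and 2 U the block also held fewer such calls than the whole list, at 5.87% against 8.33% and 2.44% against 11.3%. In M and in RS at 0.5 U it held more.

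**Figure D3:**
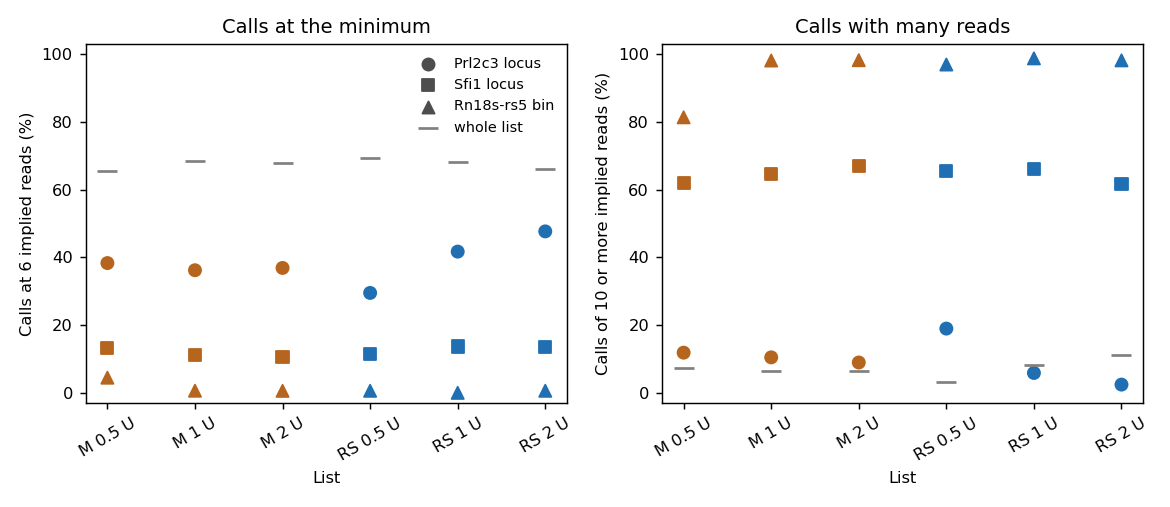
Percentage of calls at the minimum of 6 implied reads (left) and of 10 or more implied reads (right) for each list, in the Prl2c3 block (circles), the Sfi1 locus (squares), the Rn18s-rs5 bin (triangles) and the whole list (grey bars). At 10 or more reads the Prl2c3 block lies at 19.0% or below in every list and the Sfi1 locus at 61.6% or above.

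Few bases of the block were called in all 6 lists, while most were called in some. Of its bases, 17.4% had no call in any list, 20.2% had calls in 1 list and 20.2% in 2 lists. Those with calls in 3, 4 and 5 lists made up 16.7%, 14.4% and 8.57%. Bases called in all 6 lists made up 2.45%, or 3922 bases in 63 stretches, and those called in 2 or more lists 62.3%. The product of the 6 covered shares is 0.217%, the value for unrelated lists with evenly spread calls, which those of the block were not. In the Sfi1 locus 25.3% of the bases were called in all 6 lists, where the product is 0.619%, and in the Rn18s-rs5 bin 53.6%. M at 0.5 U covers similar shares of the 2 places, 34.1% of the Prl2c3 block and 33.9% of the Sfi1 locus. Of these bases, M at 1 U also covered 56.0% in the Prl2c3 block, where it covers 38.4% of all bases, and 89.8% in the Sfi1 locus, where it covers 43.4%. The places were not alike in reads: in M at 0.5 U, 38.3% of the calls of the block stood at the minimum against 13.3% in the Sfi1 locus. The part of this in the difference was not tested.

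The overlap of a pair of lists was also divided by the product of the shares they cover. This ratio is 1 for calls spread evenly over a place and without regard to the other list. In the block calls were uneven, and the same bins tended to be high in each list. A ratio above 1 was therefore not separated from density that the lists share. The ratio cannot exceed the inverse of the larger covered share. In the Prl2c3 block it ran from 1.19 to 1.46 over the 15 pairs, and its limit is low in pairs with RS at 0.5 U. In the 10 pairs without that list, whose limits are 2.58 or more, it ran from 1.34 to 1.46. In the Sfi1 locus the same 10 pairs gave 1.77 to 2.07, with limits of 2.09 or more. Of the bases of the less covered list in these pairs, the other list also called 45.7% to 56.6% in the Prl2c3 block and 79.3% to 91.7% in the Sfi1 locus. The median call of the Sfi1 locus had more reads than that of the block in each list, and the part of this was not tested. The Rn18s-rs5 bin, at 1.73 to 1.74, and the flanks, at 15.6 to 140, have other limits and are not compared. Within the block, pairs of the same stage had a median of 1.44 over 6 pairs (1.19 to 1.46), and pairs of different stages 1.40 over 9 pairs (1.22 to 1.46), so the ranges overlapped.

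**Figure D4:**
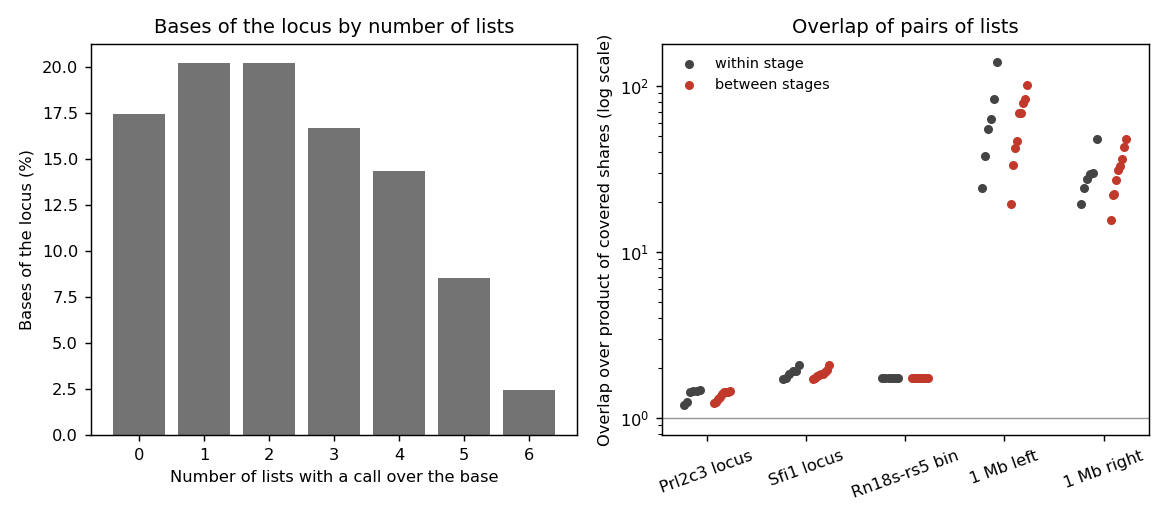
Left, percentage of the bases of the Prl2c3 block by the number of lists with a call over them, from 0 to 6. Right, for each pair of lists, the overlap of called bases over the product of the covered shares, on a log scale, within a stage (dark) and between stages (red). Pairs in the Prl2c3 block lie between 1.19 and 1.46 and those of the Sfi1 locus between 1.71 and 2.07; the possible maximum differs between pairs and places.

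Single positions were defined by taking the call with the most implied reads and every call with a midpoint within 73 bp, then the next. This gave 962 positions in the block. Of these, 294 (30.6%) were found in 1 list, 240 in 2, 184 in 3, 122 in 4, 97 in 5 and 25 (2.60%) in all 6. In the left flank 119 of 139 positions were found in 1 list, and in the right flank 157 of 187. A higher share of positions found in several lists follows where calls are dense, and it was not separated from density here.

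The positions with the most reads among the 25 illustrate how levels varied. That at chr13:12905172-12905311 had 17, 12 and 6 reads in M from 0.5 to 2 U and 13, 8 and 7 in RS. That at chr13:12875192-12875331 had 7, 12 and 8 in M against 17, 6 and 12 in RS, and a stretch of 180 bases there, from 12875207, was the longest called in all 6 lists. A pair at chr13:12842152-12842291 and chr13:12842642-12842781 had 9, 10 and 14 and 8, 11 and 15 reads in M, and 9, 8 and 9 and 12, 6 and 6 in RS. The fifth, at chr13:12926842-12926981, lies in Gm40904 and had 10, 7 and 11 reads in M against 13, 8 and 9 in RS. The other 4 lie outside the genes of the RefSeq table. The first had its highest count in M at 0.5 U, and the pair had theirs in M at 2 U.

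Few bases of the block separated the stages. Bases called in the 3 lists of M and in none of RS came to 874 (0.546%), in 34 stretches, the longest of 100 bases from 12866962, inside Gm2544. Those called in the 3 lists of RS and in none of M came to 1056 (0.660%), in 23 stretches, the longest of 135 bases from 12808437. The lists differ in how much of the block they cover, and these numbers are not adjusted for it. 12.2% of the bases were called in the 3 lists of M and 7.90% in the 3 lists of RS, and RS at 0.5 U alone covered 60.4%. Few bases could thus meet the rule, so the small totals do not show that the stages are alike.

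The share of a list that falls in the block was compared next, as it sets the block against the rest of the genome. For M this share was 1.84% (1.71 to 1.97), then 1.51% (1.41 to 1.61), then 1.36% (1.27 to 1.45) with rising MNase. For RS it was 0.885% (0.843 to 0.930), 1.63% (1.52 to 1.76) and 1.51% (1.37 to 1.66). RS at 0.5 U was low and the other 5 lists lay between 1.36% and 1.84%. The ratio of RS to M was 0.482 (0.442 to 0.525) at 0.5 U, 1.08 (0.981 to 1.20) at 1 U and 1.11 (0.988 to 1.25) at 2 U. Counted by single calls, the interval excluded 1 at 0.5 U alone. With calls within 73 bp merged, the ratio was 1.31 at 1 U and 1.61 at 2 U, so this reading depends on the unit of counting. At equal MNase per cell the ratio was 0.890 (0.803 to 0.986) when RS at 1 U was set against M at 0.5 U, and 1.00 (0.890 to 1.12) when RS at 2 U was set against M at 1 U. These ratios are for single calls and also depend on the unit of counting. With merged calls the shares were 1.12% in RS and 1.12% in M for the first pair, and 1.30% and 0.856% for the second. With calls above 6 reads they were 2.99% in RS and 3.27% in M, and 2.33% and 3.05%. RS cells are haploid and the stage of M is uncertain, so equal MNase per cell need not be equal MNase per amount of DNA.

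At 0.5 U, RS had 2.05 times the calls of M in the block but 4.25 times in the whole list, so the excess was smaller in the block than over the genome. The block's share of M fell with MNase, to 0.740 (0.672 to 0.815) of its value from 0.5 to 2 U. In RS it was 1.85 times as high at 1 U as at 0.5 U and 1.70 times (1.53 to 1.90) as high at 2 U. From 1 to 2 U the ratio was 0.901 (0.822 to 0.989) in M and 0.923 (0.817 to 1.04) in RS. The size of the change in RS depended on the unit of counting: with calls within 73 bp merged it was 3.15 from 0.5 to 2 U, and with calls above 6 reads it was 1.14. With calls above 6 reads the ratio of RS to M at 1 and 2 U was 0.979 and 0.872, below 1, and with merged calls 1.31 and 1.61. A stage difference at these amounts was therefore not established in either direction. From 0.5 to 2 U the implied mean reads per window rose in M and fell in RS. Their part in the changes of the share was not tested.

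**Figure D5:**
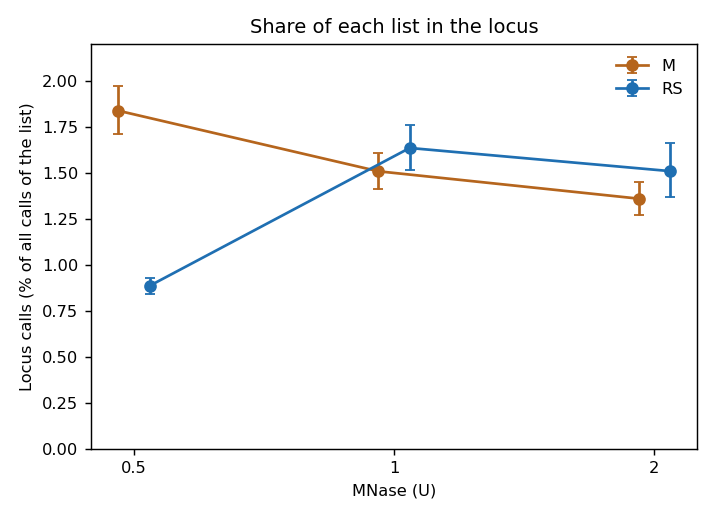
Calls in the block as a percentage of all calls of the list, against the MNase amount in U, for M (brown) and RS (blue). Error bars are exact binomial 95% intervals for counting error, and each point is 1 list; RS at 0.5 U lies at 0.885% and the other 5 points between 1.36% and 1.84%.

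Some bins of the block had another part in it at each amount of MNase. The bins from 12920001, 12930001 and 12900001 are described first, the second of them chosen after its values were seen. As a share of the calls in the block, the bin from 12920001, which holds most of the body of Gm40904, had 6.06%, 9.60% and 11.0% in M from 0.5 to 2 U and 6.49%, 7.64% and 8.80% in RS. The bin from 12930001 had 6.58%, 8.39% and 9.87% in M against 6.68%, 7.05% and 9.05% in RS. Both were thus higher with more MNase in both stages. The bin from 12900001 went the other way, with 14.5%, 11.6% and 9.30% in M against 10.5%, 9.84% and 8.31% in RS. It was named for its high sum, to which the list at 0.5 U gave the most calls in each stage, so its fall is a description. In RS at 2 U the shares of these bins rest on 34 to 37 of 409 calls, and no intervals were computed for them. From 0.5 to 2 U, 6 of the 16 bins had a larger share in both stages, 3 a smaller share in both, and 7 moved in opposite ways. Among those 7 was the leftmost bin, with Prl2c3, whose share went from 0.387% to 1.91% in M and from 3.53% to 1.71% in RS. The bin from 12840001 went from 10.5% to 8.74% in M and from 8.26% to 8.56% in RS.

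Among distances from 120 to 250 bp, the most frequent was 205, 165 and 205 bp in M and 215, 195 and 165 bp in RS. These modes held only 1.11 to 1.16 times the mean number of pairs in that range, so a spacing of nucleosomes was not resolved in the block. Distances from 1 to 100 kb were counted in steps of 500 bp and set against the 5 kb on each side. The highest step had 1.08 to 1.31 times its surroundings, and it lay at 85 kb, 96 kb and 96.5 kb in M and at 89 kb, 66 kb and 56.5 kb in RS. M at 1 U and at 2 U thus had their highest steps next to each other, and the other 4 lists had theirs elsewhere. Lower steps were not compared between lists.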

How the data were processed

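MNase-seq was analysed for 12 samples in 6 groups of 2. STAR 2.5.2a and the build GRCm38/mm10 appear in the submitters' processing notes. For the caller, its threshold and reads that match several places, the method was not given in the sources used here. Both replicates of a group went into 1 list, per the series' design text. The authors deposited each call as an interval of 140 bp and a p-value, without read counts. The number of sequenced reads is unknown.

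Calls were represented by their midpoints (start plus 70). Implied reads came from matching the 8 largest p-values to Poisson tails and assigning each p-value of at least 1e-300 the nearest tail. The block contained none below that. Genes and promoter sequences came from RefSeq tables of GRCm38.p6, an assembly of C57BL/6J; 27 of 28 prolactin list names matched, and promoter sequences matched for 2 of the 5 genes of the block. No genome sequence was used. Promoters were aligned with Biopython 1.88. Intervals are exact Poisson or binomial (Clopper-Pearson), or normal on the log scale for ratios, and cover counting error only. Steps used Python 3.11.15, numpy 2.4.6, scipy 1.17.1 and pandas 2.3.3, and were tested on simulated data.

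Alternatives were merged calls, calls above 6 reads, bins above 20 calls in all 6 lists, other denominators, flanks of 500 kb and 2 Mb, and sharing within 20 bp or within the length of a nucleosome core. Named genes were all genes of the block, the Prl2c genes, prolactin family members with calls, the 5 protein-coding flank genes with most calls, the 5 positions found in most lists, and the 3 highest and 3 lowest bins. The block, the lists and these rules were chosen with earlier results of these data known.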

Additional observations from a re-analysis of the deposited data

Results flagged for a closer look

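From 0.5 to 2 U of MNase the stages moved in opposite ways in 4 measures of the block. Each rests on 1 list per stage and amount, and the difference between the stages was not tested. Calls in the block changed to 1.15 times in M and to 0.258 times in RS, and bases covered changed to 1.14 times in M and to 0.365 times in RS. The whole lists moved in the same directions, to 1.56 times in M and 0.151 times in RS. The share of the list that lies in the block changed to 0.740 times in M and 1.70 times in RS. The density over the flanks changed to 0.976 times in M and 1.54 times in RS, and the interval of that density at 0.5 U in M, 82.4 to 126, includes the value at 2 U, 99.6. The share of block calls with 10 or more reads fell in both stages, to 0.756 times in M and 0.129 times in RS. The mean reads per window implied by the p-values went from 0.434 to 0.507 in M and from 0.696 to 0.409 in RS. The part of this coverage in all these changes was not tested.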

How the results depend on the processing

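No paired analysis was possible because the authors made each list from both replicates, and for the same reason no replicate could be left out. Of 106 values under alternatives, 23 were labelled as the same and 83 as moved. The mark was the counting interval or, for counts, 1.5 times. The spacing has no such interval and was labelled more strictly: from 205 to 215 bp was the same, and from 195 to 235 bp was moved. No share ratio that excluded 1 changed side. Lists are given in the order M at 0.5, 1 and 2 U, then RS. With calls merged, block calls were 297, 323, 333, 479, 291 and 212, their share of the list 1.12%, 0.856%, 0.806%, 0.411%, 1.12% and 1.30%, and RS over M 0.368, 1.31 and 1.61. With calls above 6 reads, block calls were 478, 578 and 563 for M and, at 1 and 2 U, 397 and 214 for RS, shares 3.27%, 3.05%, 2.67%, 2.04%, 2.99% and 2.33%, and RS over M 0.625, 0.979 and 0.872. With the 11 bins above 20 calls in all lists, shares were 1.49%, 1.21%, 1.11%, 0.676%, 1.34% and 1.29%. Over calls outside dense bins they were 2.11%, 1.71%, 1.54%, 0.947%, 1.91% and 1.82%, and over calls of chromosome 13 they were 28.5%, 24.6%, 22.6%, 15.3%, 26.9% and 27.7%. At equal MNase per cell RS over M was 0.890 in place of the value at 0.5 U. For 2 U over 0.5 U, M gave 0.815 with calls above 6 reads, and RS gave 3.15 with merged calls, 1.14 with calls above 6 reads and 1.90 with the 11 bins. Density over flanks was 61.3, 61.5, 61.3, 47.2 and 69.8 with 500 kb (RS at 2 U within its interval), and 151, 144, 141, 89.3, 170.2 and 153 with 2 Mb. It was 68.8, 64.1, 66.1 and 38.6 with merged calls in M and RS at 0.5 U. Without the 2 dense flank bins it was 192, 170, 178, 106, 196 and 241. Positions in all 6 lists were 8 within 20 bp and 42 within the length of a nucleosome core, against 25. Merged calls moved the spacing to 225 bp in M and 235 bp in RS at 1 U. With calls above 6 reads the highest step of long distances was 1.33, 1.35, 1.39, 1.12, 1.35 and 1.66. The cause of these changes was not tested beyond what each alternative removes. Most calls of a list stand at 6 reads, so such a call would be lost with 1 read fewer.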
